A study of Mus musculus with 6 samples.

Results

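The VEGF system and chondromodulin are described here through 10 genes, picked by symbol from the 24346 gene symbols measured in mouse cranial base cartilage. They are the ligand genes Vegfa, Vegfb, Vegfc and Pgf, the receptor genes Kdr, Flt1 and Flt4, the co-receptor genes Nrp1 and Nrp2, and Lect1, the chondromodulin gene. All 10 were listed in every library, Lect1 under that older symbol of Cnmd. None of the 8 that could be tested passed the threshold between the library groups FP and RR, which 0.967% of all tested genes did. Groups did not overlap only for the neuropilin genes, 2 of the 8, against 16% of all tested genes. For so few genes, 2 of 8 is close to that share. Nrp1 was higher and Nrp2 lower in each FP library than in any RR library.

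VEGF proteins are secreted growth factors that bind receptor tyrosine kinases on endothelial cells and start the growth of blood vessels. Neuropilins hold these ligands for the receptors, and also bind class 3 semaphorins. Cartilage has no vessels until hypertrophic chondrocytes make VEGF-A, which draws in vessels before bone forms. Chondromodulin is a cartilage glycoprotein known to inhibit vessel growth.

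The study set flat against round chondrocytes of the spheno-occipital synchondrosis, a growth cartilage between bones of the skull base, cut out by laser from frozen sections. There were 3 libraries coded FP and 3 coded RR, numbered 11, 14 and 16 in both. No label spells out the codes, so they are used as codes. All mice carried Gli1CreERT2, a tamoxifen-activated Cre expressed from the Gli1 gene, beside a floxed Tomato reporter, and all were injected with tamoxifen at postnatal day 3, so no group lacks the Cre or the drug. The labels do not give the strain, the age at collection or any pooling of animals. No source ties the libraries to separate mice, and p-values therefore reflect only how these samples vary, which could be technical.

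Levels are in FPKM, which counts fragments per length of transcript and per size of library, a scale that allows levels of different genes to be set side by side. The deepest library (FP 11) was 2.32 times as deep as the shallowest (RR 14), as read from the steps of low values, provided that the authors did not rescale libraries to one another. RR 14 stood apart within its group, with Pearson's r across genes of 0.787 and 0.817 to the other RR libraries. It was 0.845 between those and 0.856 to 0.873 among FP libraries (genes are not independent replicates). Libraries did not sort by group alone, since RR 11 was closest to FP 11 (r = 0.871) and RR 16 to FP 16 (r = 0.859). The tissue label held: the cartilage collagen gene Col2a1 was at 41112 to 74248 FPKM in FP and 38697 to 81873 FPKM in RR libraries. Of 5 hypertrophic markers 4 were higher in FP (limma adjusted p under 0.05), led by the collagen X gene Col10a1 at 344 ± 42.5 FPKM in FP and 7.05 ± 6.03 FPKM in RR (SD, n = 3 each). Pthlh, the gene of the parathyroid hormone-related protein of resting chondrocytes, was lower, at 3.58 to 7.69 FPKM in FP and 46.3 to 57.7 FPKM in RR. Over all 14789 tested genes, 0.967% passed the threshold between FP and RR.

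On mm10 with GENCODE M21, Vegfa lies on chromosome 17 (46016993 to 46032369, minus strand), Vegfb on chromosome 19 (6982473 to 6987651, minus), Vegfc on chromosome 8 (54077606 to 54187096, plus) and Pgf on chromosome 12 (85166635 to 85177790, minus). Kdr and Flt1 are both on the minus strand of chromosome 5 (75932827 to 75978458 and 147561604 to 147726011), and Flt4 is on chromosome 11 (49609263 to 49652739, plus). Nrp1 lies on chromosome 8 (128358604 to 128503363, plus), Nrp2 on chromosome 1 (62703285 to 62818695, plus) and Lect1, annotated there as Cnmd, on chromosome 14 (79637690 to 79662170, minus). The annotated gene Gm29083 overlaps Nrp2 on the opposite strand, Gm37121 overlaps it on the same strand, and Mir1903 overlaps Nrp1 on the same strand. Whether counting used strand is not stated, so Nrp2 values may hold reads of Gm29083. Values are per gene, so the diffusible and matrix-bound forms of Vegfa, drawn from 8 annotated basic transcripts, and the soluble form of Flt1 are not separated.

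The bases just before the start site are shown for Vegfa, the most abundant ligand gene, for Lect1, the most abundant of the 10, and for Nrp2, the neuropilin gene with the larger estimate when all 6 libraries were used. They come from RefSeq on GRCm38.p6, on the gene's strand, and capitals mark the GC box, GGGCGG or its reverse complement CCGCCC. From these printed sequences, bases inside the GENCODE transcripts were left out.
Vegfa, chr17:46032378-46032627, minus strand: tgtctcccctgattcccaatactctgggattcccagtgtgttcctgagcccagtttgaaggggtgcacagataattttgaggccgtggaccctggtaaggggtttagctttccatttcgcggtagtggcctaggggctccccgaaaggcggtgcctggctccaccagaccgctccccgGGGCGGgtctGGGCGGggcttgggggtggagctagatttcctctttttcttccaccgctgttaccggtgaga
Nrp2, chr1:62703067-62703284, plus strand: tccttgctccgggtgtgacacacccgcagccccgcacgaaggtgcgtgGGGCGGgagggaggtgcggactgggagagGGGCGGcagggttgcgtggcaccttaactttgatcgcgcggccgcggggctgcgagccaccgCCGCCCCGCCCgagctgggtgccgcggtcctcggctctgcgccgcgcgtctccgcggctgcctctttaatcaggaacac
Lect1, chr14:79662184-79662433, minus strand: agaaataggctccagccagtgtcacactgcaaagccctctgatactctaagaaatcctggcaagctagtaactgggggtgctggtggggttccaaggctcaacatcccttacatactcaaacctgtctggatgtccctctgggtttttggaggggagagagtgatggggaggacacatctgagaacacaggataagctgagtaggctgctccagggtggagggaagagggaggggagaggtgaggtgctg

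All 10 genes had a promoter in the RefSeq table, and the first listed start was used. In the 250 bases before it, on either strand, a GC box stood in 9 of the 10, Lect1 being the exception. It stood in 52.8% of 14032 promoters of tested genes and in 32.7% of all 32851 promoters. Windows were counted whole. Those of Nrp1, Flt4 and Pgf lie inside the GENCODE bounds of the gene, and those of Nrp2 and Kdr partly so. The counted bases are thus not all upstream of the gene as GENCODE annotates it. The Lect1 window was also the lowest of the 10 in G and C, at 54.0%, against 76.4% in Vegfb, the highest, and a median of 58.8% over promoters of tested genes. The core of the hypoxia response element, ACGTG or CACGT, was in none of the 10 windows and in 20.4% of promoters of tested genes. A TATA box, TATAAA or TTTATA, was in 1, that of Flt1, and in 8.19% of those promoters. The SOX core ACAAT or ATTGT was in none, against 20.4%. Vegfa and Pgf also had a second listed start, not counted here. The window of the second Vegfa start held 1 hypoxia response core, and that of the second Pgf start held no GC box. These counts describe letters in a short window.

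Lect1 was by far the most abundant of the 10. It ranked between 21 and 83 among all 24346 symbols in the libraries, while Vegfa ranked between 395 and 1260. By mean FPKM over the 6 libraries the order was Lect1 (1222), Vegfa (47.7), Vegfb (12.5), Nrp2 (9.75), Nrp1 (6.06), Kdr (1.91), Pgf (1.39), Flt1 (1.24), Flt4 (0.680) and Vegfc (0.522). Lect1 and Vegfa did not overlap with any other member over the libraries. Vegfb, Nrp2 and Nrp1 overlapped with one another, and so did the 5 genes from Kdr down, while the lowest values of Nrp1 (3.27) and Nrp2 (3.38) lay under the highest of Kdr (3.76) and Pgf (4.59). The ligand genes summed to 45.9, 62.6 and 51.4 FPKM in FP 11, 14 and 16, against 47.9, 64.0 and 101 FPKM in RR 11, 14 and 16. The receptor genes summed to 3.66, 4.20 and 1.90 FPKM in FP, against 2.78, 5.97 and 4.46 FPKM in RR. Ligand transcripts were thus 12.5 to 27.0 times the receptor transcripts in FP and 10.7 to 22.7 times in RR.

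**Figure D1:**
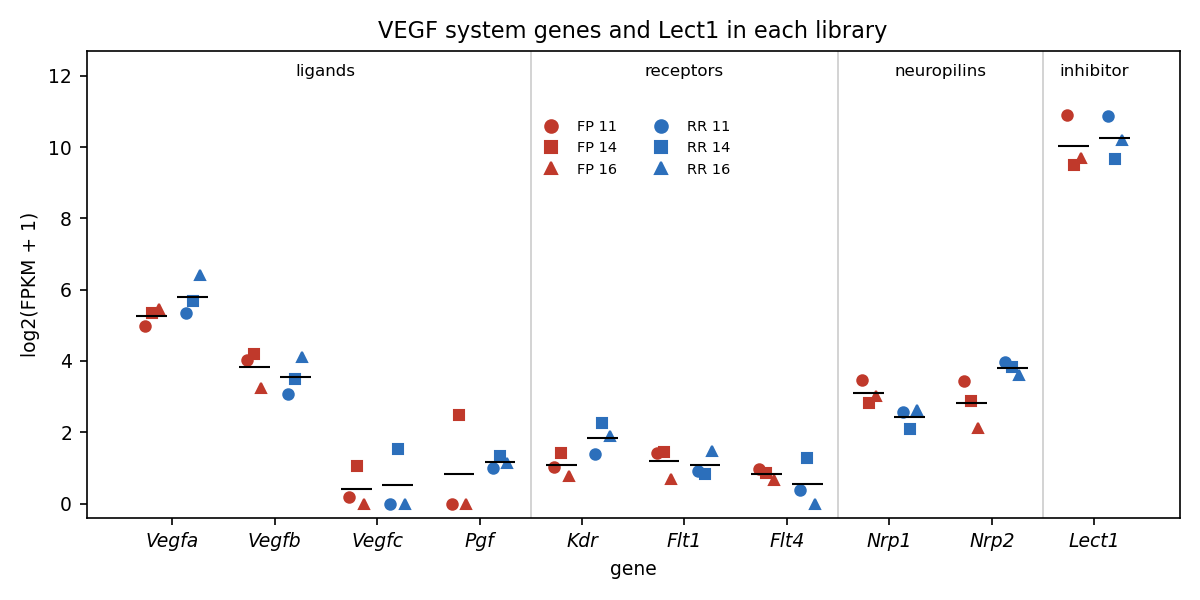
Levels of the 10 genes as log2(FPKM + 1) in each library (FP in red left of RR in blue, marker shape for the library number, black bars for group means on this scale). Lect1 and Vegfa lie above all other members in every library, Nrp1 is higher and Nrp2 lower in FP than in RR with no overlap, and the other genes overlap between groups.

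Changes were tested as log2(FPKM + 1) with limma, FP minus RR, for genes that averaged 1 FPKM or more over the 6 libraries, which left out Vegfc and Flt4. Of the 8 tested members, 0 passed an adjusted p of 0.05, and 2 (Nrp1 and Nrp2) had an unadjusted p under 0.05, against 10.3% of all tested genes. Groups did not overlap for the same 2 of 8, against 16% of all tested genes, of which 8.74% were higher and 7.28% lower in FP. For so few genes, this count of 2 is close to the 16% share. Estimates were positive for 3 of the 8 and negative for 5, with a median of -0.27, against 0.02 over all tested genes.

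Among the ligands, Vegfa, the main VEGF of the growth plate, was at 30.6, 39.6 and 42.9 FPKM in FP 11, 14 and 16, against 39.4, 50.2 and 83.7 FPKM in RR 11, 14 and 16. RR 16 was the highest of the 6, and the groups overlapped, since RR 11 lay below FP 14 and FP 16. The means were 37.7 ± 6.37 FPKM in FP and 57.7 ± 23.1 FPKM in RR (SD, n = 3 each). The log2 change was -0.55 ± 0.33 (SE, limma adjusted p = 0.669), with a 95% interval of -1.30 to 0.21. This interval is not adjusted for the number of genes and reflects only how these 6 libraries vary. It therefore does not exclude a rise of Vegfa in FP. Leaving out 1 library gave estimates of -0.78 (without RR 11) to -0.25 (without RR 16).

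Vegfb, a ligand of Flt1, was at 15.2, 17.3 and 8.49 FPKM in FP 11, 14 and 16, against 7.47, 10.4 and 16.2 FPKM in RR. FP 16 and RR 16 went against the order of the other libraries, and the groups overlapped. The log2 change was 0.26 ± 0.36 (limma adjusted p = 0.883, 95% interval -0.57 to 1.09). The Vegfb estimate was 0.016 without RR 11 and 0.54 without FP 16, and 0.15 after quantile normalization. Vegfa made up 66.5%, 63.2% and 83.5% of the summed ligand FPKM in FP 11, 14 and 16, against 82.3%, 78.4% and 82.8% in RR.

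Pgf, the placental growth factor, which binds Flt1, was listed at 0, 4.59 and 0 FPKM in FP 11, 14 and 16, against 1.004, 1.53 and 1.19 FPKM in RR. It was thus highest in one FP library and listed at 0 in the others, and its interval was the widest of the 8 (-1.88 to 1.22, limma adjusted p = 0.936), around a log2 change of -0.33 that was -1.88 with a pseudocount of 0.1. Vegfc, the ligand of lymphatic vessels, was listed at 0.137, 1.09 and 0 FPKM in FP, against 0, 1.91 and 0 FPKM in RR. Both libraries numbered 14 were the highest of their group for Vegfc. A value of 0 in such a table can be a failed estimate, so no fold is given for these genes.

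Of the receptors, Kdr, the main signalling receptor of VEGF-A on endothelium, was at 1.05, 1.66 and 0.702 FPKM in FP 11, 14 and 16, against 1.60, 3.76 and 2.70 FPKM in RR. Only FP 14 and RR 11 overlapped. The means were 1.14 ± 0.483 FPKM in FP and 2.69 ± 1.08 FPKM in RR (SD, n = 3 each), and the log2 change was -0.77 ± 0.37 (limma adjusted p = 0.543, 95% interval -1.61 to 0.07). With its single annotated transcript, these values came to about 11.9 to 48.9 fragments a library. Because low values are compressed by the added 1, the change with a pseudocount of 0.1 was larger, at -1.17.

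Flt1, which binds VEGF-A tightly and signals weakly, was at 1.67, 1.73 and 0.607 FPKM in FP, against 0.865, 0.790 and 1.76 FPKM in RR. The groups overlapped, with FP 16 lowest and RR 16 highest (log2 change 0.12 ± 0.41, limma adjusted p = 0.967). Flt4, the receptor of VEGF-C, was at 0.941, 0.813 and 0.595 FPKM in FP, against 0.311, 1.42 and 0 FPKM in RR. The FP values for Flt4 lay inside the RR range, and its values came to at most about 24.6 fragments.

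Nrp1, a co-receptor of Kdr and a receptor of semaphorin 3A, was at 9.96, 6.01 and 7.03 FPKM in FP 11, 14 and 16, against 4.97, 3.27 and 5.12 FPKM in RR. Every FP library was thus higher than the highest RR library, RR 16, and FP 11 was the highest of the 6. The means were 7.67 ± 2.05 FPKM in FP and 4.45 ± 1.03 FPKM in RR (SD, n = 3 each), a 1.72-fold ratio, with a log2 change of 0.66 ± 0.29 (limma adjusted p = 0.484, 95% interval 0.00079 to 1.32). Its unadjusted limma p of 0.0498 was borderline, and was 0.0526 with a pseudocount of 0.1 and 0.166 without FP 11. Leaving out 1 library gave Nrp1 estimates of 0.48 (without FP 11) to 0.80 (without FP 14).

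Nrp2, a co-receptor of Flt4 and a receptor of semaphorin 3F, went the other way by its estimate. It was at 9.77, 6.31 and 3.38 FPKM in FP 11, 14 and 16, against 14.6, 13.3 and 11.2 FPKM in RR. Every FP library was thus lower than the lowest RR library, RR 16, with FP 16 the lowest. The means were 6.48 ± 3.20 FPKM in FP and 13.0 ± 1.74 FPKM in RR (SD, n = 3 each), 2.01-fold lower in FP, with a log2 change of -0.99 ± 0.35 (limma adjusted p = 0.354, 95% interval -1.79 to -0.19). Without FP 16 the Nrp2 estimate was -0.65, and without FP 11 it was -1.30.

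Lect1, whose product chondromodulin is deposited in cartilage matrix, was at 1922, 727 and 829 FPKM in FP 11, 14 and 16, against 1862, 809 and 1179 FPKM in RR. Library 11 was the highest and library 14 the lowest in both groups, and the groups overlapped over nearly their whole range. The means were 1159 ± 663 FPKM in FP and 1284 ± 534 FPKM in RR (SD, n = 3 each). The log2 change was -0.21 ± 0.48 (limma adjusted p = 0.945), with a 95% interval of -1.30 to 0.89. Without FP 14 or without RR 11 the estimate turned positive, at 0.06 and 0.10. After quantile normalization it was -0.58 (limma adjusted p = 0.833).

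**Figure D2:**
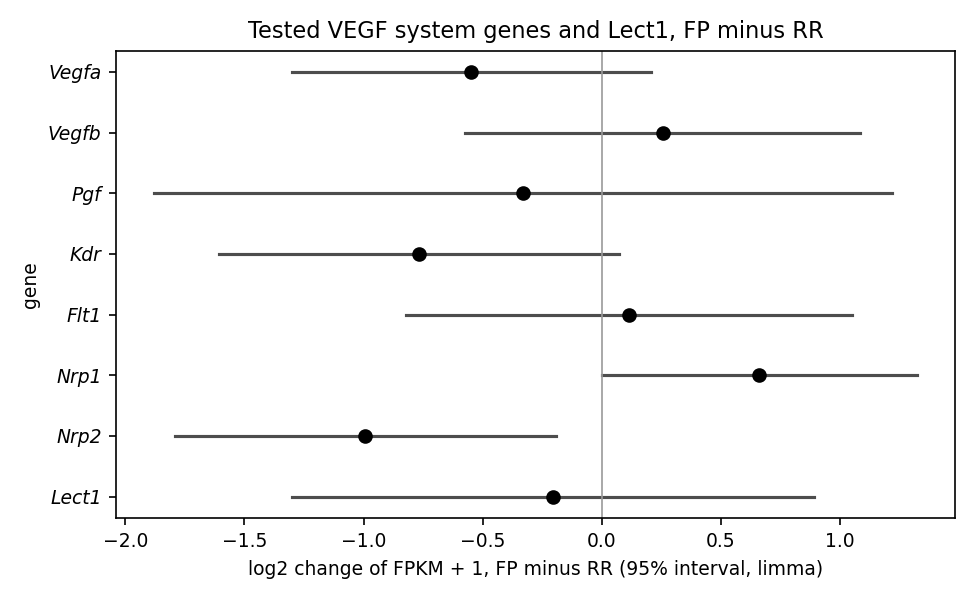
Log2 change of FPKM + 1, FP minus RR, for the 8 tested genes, with limma estimates as points and 95% intervals, not adjusted for the number of genes, as lines. Only the intervals of Nrp1 (0.00 to 1.32) and Nrp2 (-1.79 to -0.19) lie to one side of 0, and neither gene passed after adjustment over all 14789 genes.

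Ratios between members of the same library do not depend on how libraries were scaled, apart from the added 1. Of the 5 ratios compared, that of the neuropilins differed most. The log2 ratio of Nrp1 over Nrp2 was 0.03, -0.06 and 0.88 in FP 11, 14 and 16, against -1.39, -1.75 and -0.99 in RR. The groups could not overlap here, since every FP library had the higher Nrp1 and the lower Nrp2. The difference was 1.65 ± 0.37 (SE, n = 3 each, exact two-sided permutation test, p = 0.1, the smallest that 3 against 3 allows), and 1.47 without RR 14. That p was thus fixed by the single-gene values and adds nothing to them. Nrp1 made up 50.5%, 48.8% and 67.6% of the summed neuropilin FPKM in FP, against 25.4%, 19.7% and 31.5% in RR.

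The ratio of Flt1 over Kdr was also higher in every FP library, at 0.38, 0.04 and -0.08 on the log2 scale in FP, against -0.48, -1.41 and -0.42 in RR. The difference was 0.88 ± 0.35 (SE, exact permutation p = 0.1, n = 3 each), from genes at a few FPKM. It was 0.56 without RR 14 and 1.34 with a pseudocount of 0.1. Lect1 over Vegfa gave 5.93, 4.17 and 4.24 in FP, against 5.53, 3.99 and 3.80 in RR, overlapping groups with a difference of 0.34 ± 0.79 (exact permutation p = 0.5, n = 3 each). Lect1 FPKM were thus 18.4 to 62.9 times those of Vegfa in FP and 14.1 to 47.3 times in RR, with library 11 highest in both groups. Vegfb over Vegfa differed by 0.80 ± 0.39 (exact permutation p = 0.2, n = 3 each) and Pgf over Vegfa by 0.22 ± 0.86 (exact permutation p = 0.9, n = 3 each), both with overlap. Over the 5 ratios tested, Benjamini-Hochberg adjusted values were 0.25 or more.

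**Figure D3:**
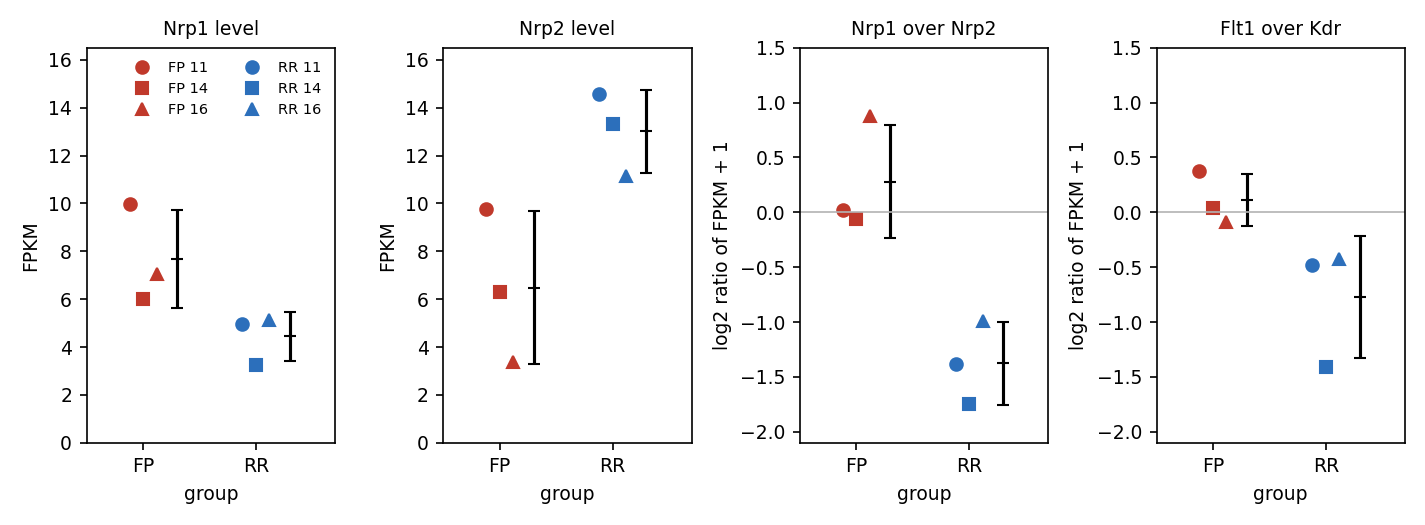
Nrp1 and Nrp2 levels in FPKM and the log2 ratios of Nrp1 over Nrp2 and Flt1 over Kdr (of FPKM + 1) in each library, FP left of RR, with group mean and SD in black. FP and RR libraries do not overlap in any of the 4 panels, which for the neuropilin ratio follows from the Nrp1 and Nrp2 panels. That ratio averages 0.28 in FP and -1.37 in RR.

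Kdr, Flt1 and Flt4 are known as endothelial genes, so other endothelial markers were read beside them. The 18 markers outside the 10 members summed to 25.0, 42.4 and 29.5 FPKM in FP 11, 14 and 16, against 23.8, 43.7 and 48.0 FPKM in RR, over overlapping ranges. At most 1 of the 18 was listed at 0 in a library. Cdh5, the endothelial cadherin, was at 1.77, 3.03 and 2.13 FPKM in FP, against 0.927, 5.22 and 6.07 FPKM in RR, and Pecam1 was at 1.47, 2.11 and 3.30 FPKM in FP, against 0.804, 3.02 and 4.57 FPKM in RR. Both were chosen as defining markers after their values were seen. Cdh5, Pecam1 and Kdr were all higher in RR 14 and RR 16 than in RR 11. Of 15 tested endothelial markers, with Kdr and Flt1 among them, 0 passed limma's test and 0 had an unadjusted p under 0.05. Their estimates were positive for 6 and negative for 9 (median log2 change -0.05). Tek, the angiopoietin receptor, was at 1.03, 1.02 and 0.540 FPKM in FP, against 1.64, 1.54 and 1.82 FPKM in RR (limma adjusted p = 0.711), without overlap. Sox17, an endothelial transcription factor gene chosen after its values were seen and too low to test, was listed at 0.198, 0 and 0.217 FPKM in FP, against 1.59, 1.98 and 1.63 FPKM in RR, also without overlap. Tek, Sox17 and Kdr were thus low in FP by their values, while the marker sum overlapped. Other markers had the higher mean in FP, such as Erg (3.08 FPKM in FP and 2.29 FPKM in RR) and Esam (2.97 FPKM in FP and 2.24 FPKM in RR). Erg and Esam were also chosen after their values were seen. The part of endothelial RNA in the Kdr and Flt1 values was not tested, and in bulk samples fewer such cells and less RNA per cell cannot be told apart.

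**Figure D4:**
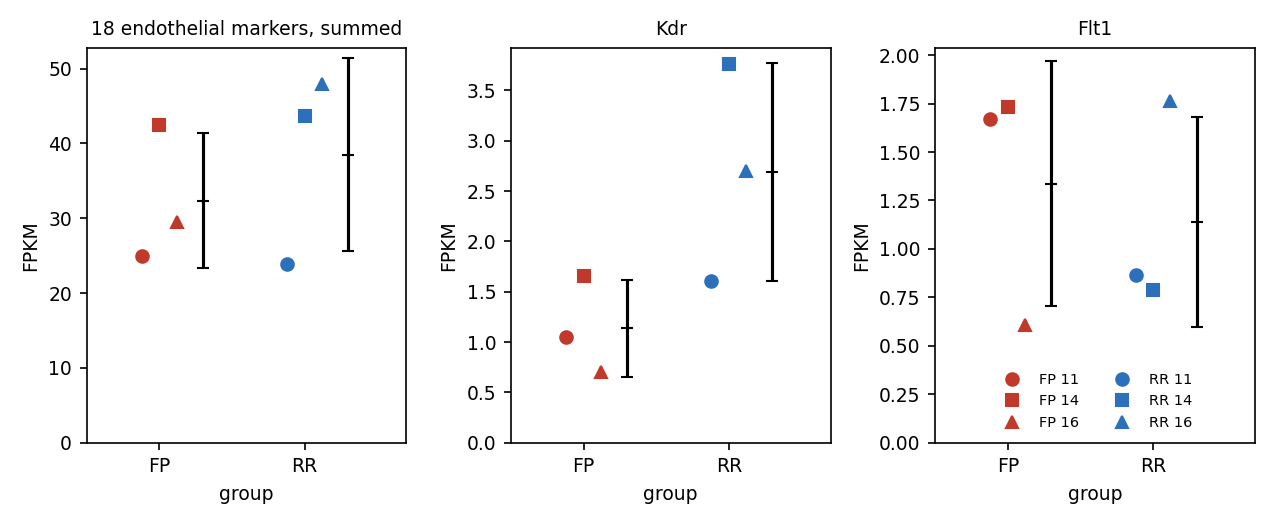
Summed FPKM of 18 endothelial markers, and Kdr and Flt1 FPKM, in each library (FP left of RR, black for mean and SD). The marker sum runs from 25.0 to 42.4 in FP and from 23.8 to 48.0 in RR, while Kdr is at or below 1.66 in FP and between 1.60 and 3.76 in RR.

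Markers of other cells were present in both groups. The 5 lymphatic markers, Flt4 included, summed to 1.71 to 2.89 FPKM in FP and 1.21 to 5.68 FPKM in RR, and only Prox1 was abundant enough to test (limma adjusted p = 0.812). The 9 pericyte and smooth muscle markers summed to 127 to 172 FPKM in FP and 79.9 to 138 FPKM in RR. Among these, Pdgfrb was at 5.01 ± 0.535 FPKM in FP and 12.5 ± 1.49 FPKM in RR (SD, n = 3 each, limma adjusted p = 0.0833), and Cspg4, which cartilage also expresses, was at 128 ± 15.9 FPKM in FP and 72.7 ± 28.1 FPKM in RR (limma adjusted p = 0.388). Red blood cell markers summed to 73.0 to 120 FPKM in FP and 52.2 to 116 FPKM in RR, and macrophage and osteoclast markers to 63.0 to 114 FPKM in FP and 37.7 to 155 FPKM in RR. Perichondrium and bone markers summed to 367 to 1058 FPKM in FP and 243 to 1699 FPKM in RR, and skeletal muscle markers to 437 to 542 FPKM in FP and 270 to 812 FPKM in RR. The muscle sum is mostly Tnni2, chosen after its values were seen, at 277, 314 and 330 FPKM in FP, against 448, 236 and 769 FPKM in RR. The other 9 muscle markers all had positive estimates, with a median of 0.92 over the 10. Myh8 was at 4.54, 13.9 and 14.3 FPKM in FP, against 4.78, 1.26 and 0.477 FPKM in RR (limma adjusted p = 0.215), and Acta1 at 38.8, 27.6 and 66.3 FPKM in FP, against 41.7, 5.84 and 2.71 FPKM in RR (limma adjusted p = 0.414). Both overlapped through RR 11 and had an unadjusted p under 0.05, and the part of muscle RNA in the members' values was not tested. Of the markers of other cells, only Sp7, a bone and hypertrophic transcription factor gene, passed (log2 change 2.81 ± 0.28, limma adjusted p = 0.00418).

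The genes around the VEGF system gave 2 that passed, in opposite directions. Of 10 tested genes of other inhibitors of vessel growth, 1 fell, Thbs1, the gene of thrombospondin 1, which blocks endothelial growth. Thbs1 was at 451, 342 and 346 FPKM in FP 11, 14 and 16, against 1347, 1041 and 1253 FPKM in RR. The FP values lay far below the RR values, 3.2-fold in the mean (380 ± 61.9 FPKM in FP and 1214 ± 157 FPKM in RR, SD, n = 3 each), with a log2 change of -1.68 ± 0.30 (limma adjusted p = 0.0449). The call was lost when any 1 of the 6 libraries was left out (limma adjusted p = 0.0956 to 0.295), without a filter (0.0922) and without an intensity trend (0.0525), while the estimate stayed between -1.81 and -1.60 in the fits without 1 library. Of the 10, 9 had negative estimates, with a median of -0.44, against 0.02 over all genes. Tnni2, among the 9, is also counted with the muscle markers. The exception was Adamts1, chosen after its values were seen. Adamts1 was at 7.29, 6.94 and 3.86 FPKM in FP, against 1.87, 3.30 and 2.76 FPKM in RR (limma adjusted p = 0.326), without overlap. Tnmd, the tenomodulin gene and the close relative of Lect1, here chosen after its values were seen, was at 1.03, 0.407 and 0 FPKM in FP, against 1.87, 0.475 and 0 FPKM in RR, a small share of the Lect1 level.

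Of 9 tested genes of matrix and protease proteins that bind or release VEGF, 1 rose, Hspg2, which codes for perlecan, a heparan sulfate proteoglycan that binds heparin-binding growth factors. Hspg2 was at 507, 546 and 601 FPKM in FP 11, 14 and 16, against 124, 142 and 194 FPKM in RR. Each FP library was above each RR library, 3.59-fold in the mean (551 ± 47.2 FPKM in FP and 154 ± 36.3 FPKM in RR, SD, n = 3 each), with a log2 change of 1.86 ± 0.29 (limma adjusted p = 0.0261). The call was lost without any 1 library but RR 16 (limma adjusted p = 0.0701 without FP 11, 0.124 without FP 14, 0.176 without FP 16, 0.0836 without RR 11 and 0.102 without RR 14). The background was 0.554% of tested genes higher and 0.412% lower in FP.

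In the other lists 0 genes passed limma's test. Among 9 angiopoietin-related genes and other ligands and receptors, 3 had an unadjusted p under 0.05. Angpt1, a ligand of Tek, was at 2.19, 2.34 and 1.14 FPKM in FP, against 5.72, 4.54 and 3.52 FPKM in RR (limma adjusted p = 0.294). Angptl2, the gene of an angiopoietin-like protein, was at 192, 109 and 184 FPKM in FP, against 64.6, 21.4 and 99.9 FPKM in RR (limma adjusted p = 0.32). Angptl4, also with an unadjusted p under 0.05, was listed at 1.90, 0 and 0.985 FPKM in FP, against 2.06, 3.45 and 7.77 FPKM in RR (limma adjusted p = 0.354). None of these 3 had overlapping groups. Figf, which codes for VEGF-D and was chosen after its values were seen, was at 1.18, 1.34 and 0.591 FPKM in FP, against 0, 6.71 and 1.61 FPKM in RR.

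Of 10 tested semaphorin and plexin genes, the partners of the neuropilins, 1 had an unadjusted p under 0.05. Sema3d, a secreted semaphorin gene, was at 27.1, 10.9 and 12.3 FPKM in FP, against 10.4, 3.80 and 8.92 FPKM in RR (limma adjusted p = 0.479), and Plxna3, a plexin gene, was at 2.83 ± 0.690 FPKM in FP and 5.10 ± 1.73 FPKM in RR (SD, n = 3 each, limma adjusted p = 0.54). Both had groups without overlap, Sema3d above and Plxna3 below RR.

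Of 11 tested regulators of Vegfa transcription, 2 had an unadjusted p under 0.05, both of the RUNX family of skeletal transcription factors. Runx3 was at 39.9, 47.1 and 53.1 FPKM in FP, against 13.0, 15.2 and 31.8 FPKM in RR (log2 change 1.28 ± 0.35, limma adjusted p = 0.206). Runx2 was at 51.7, 65.3 and 59.8 FPKM in FP, against 32.0, 26.3 and 50.5 FPKM in RR (0.73 ± 0.30, limma adjusted p = 0.454). Both were higher in every FP library, while Vegfa overlapped with a negative estimate.

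Of 14 tested hypoxia-inducible genes, 11 had positive estimates, with a median of 0.51, and 2 had an unadjusted p under 0.05. Ankrd37, an ankyrin repeat gene, was at 3.94, 7.83 and 2.39 FPKM in FP, against 0.499, 1.52 and 0.896 FPKM in RR (limma adjusted p = 0.22). P4ha2, a collagen prolyl hydroxylase subunit, was at 82.3, 42.5 and 57.4 FPKM in FP, against 39.7, 31.6 and 29.7 FPKM in RR (limma adjusted p = 0.414). Estimates were negative for 3, among them Ndrg1, at 3.09, 3.75 and 0.623 FPKM in FP, against 5.22, 4.17 and 3.98 FPKM in RR. Adm, too low to test, was listed at 0.391, 0 and 0 FPKM in FP, against 0.892, 0.905 and 1.33 FPKM in RR. Ndrg1 and Adm, chosen after their values were seen, were lower in FP without overlap. Of 17 tested VEGF receptor signalling genes, 9 had positive and 8 negative estimates, and 1 had an unadjusted p under 0.05. This was Plcg2, a phospholipase C gene, at 4.08 ± 1.73 FPKM in FP and 9.36 ± 1.48 FPKM in RR (SD, n = 3 each, limma adjusted p = 0.224). Src, a tyrosine kinase gene, was at 6.98 ± 2.49 FPKM in FP and 9.81 ± 0.879 FPKM in RR (limma adjusted p = 0.669).

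**Figure D5:**
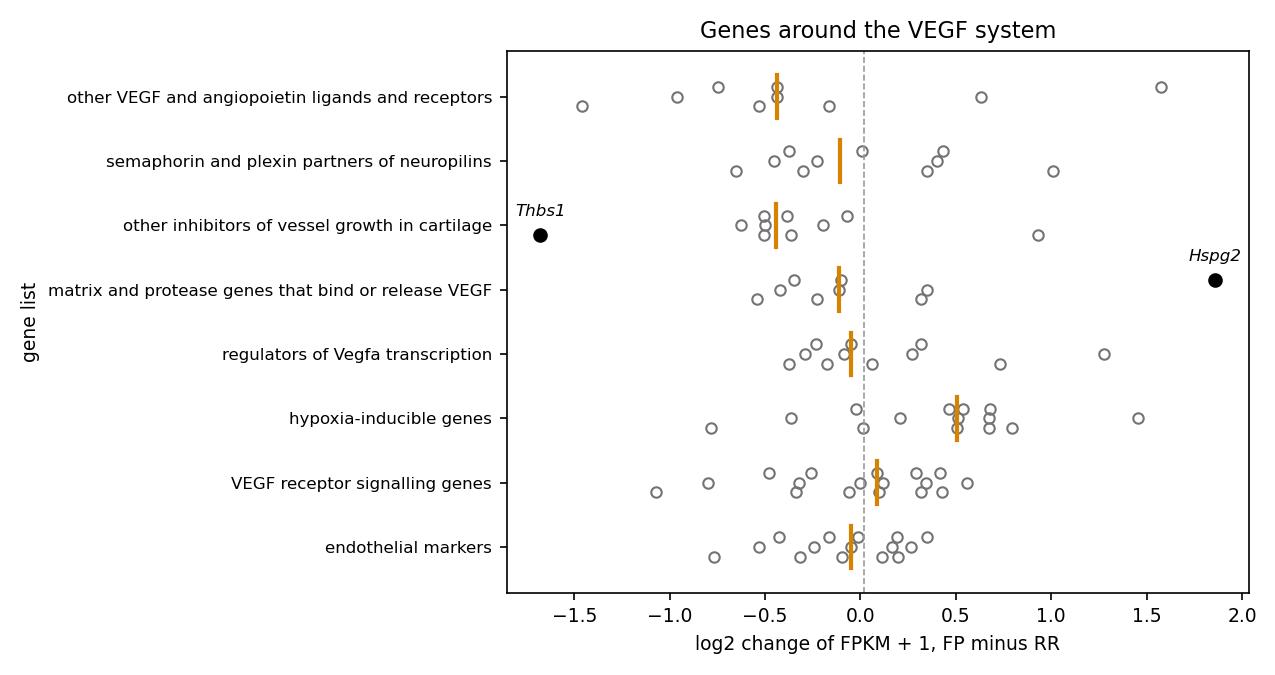
Log2 change of FPKM + 1, FP minus RR, of the tested genes in 8 lists around the VEGF system, with filled points for genes past limma's adjusted p of 0.05, orange bars for list medians and a dashed line for the median of all tested genes. Thbs1 (-1.68) and Hspg2 (1.86) are the only filled points.

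The genes whose levels followed the leading members most closely were read over the 6 libraries among 6550 genes averaging 5 FPKM or more. For Vegfa they were Thra, Hdac4 and Ski, with Pearson's r of 0.992, 0.988 and 0.986. For Nrp2 they were Zmym4, Ino80d and Gstm5, with r of 0.999, 0.990 and 0.971. For Lect1 they were Acap2, Usp1 and Nop10, with r of 0.999, 0.997 and 0.994. With so few libraries many genes fall this close, and r was above 0.9 for 119 genes with Vegfa, 42 with Nrp2 and 283 with Lect1. The Lect1 followers were, like Lect1, highest in library 11 of both groups, as Nop10 at 18.1 FPKM in FP 11 and 13.1 FPKM in RR 11, against 1.71 to 5.87 FPKM in the other 4 libraries. The libraries behind each r share depth and library number as well as group.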

How the data were processed

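Chondrocyte layers were cut by laser microdissection, RNA was taken up in QIAzol and total RNA libraries were made with a SMARTer stranded kit for very low input, per the labels' protocols. The authors deposited FPKM values for 24346 gene symbols, 1 column per library, per the file headers. The tools named are Cuffdiff 2.2.1, TopHat2 2.1.1, SAMtools 0.1.18 and Bowtie2 2.2.8 on mm10, per the submitters' processing notes. Not given in the sources used here are their order, the annotation, scaling between libraries and use of strand.

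Groups are the title codes FP and RR. A linear model of log2(FPKM + 1) was fitted with limma 3.58.1 under R 4.3.3 (eBayes with an intensity trend, two-sided, FP minus RR) to the 14789 genes averaging 1 FPKM or more, with Benjamini-Hochberg adjustment over all of them and a threshold of 0.05. The script was tested on simulated data. Ratios were compared by exact permutation (scipy 1.17.1). Depth was read from 3524 genes with a single basic transcript of 1500 to 3000 bp, less 200 bp for fragment length. Of their low values 75.3% to 79.9% were whole fragments within 0.1, against 20% by chance, and fragment numbers use the longest transcript. The total depth is unknown.

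The members and lists were chosen with earlier results of these data known. Named genes are the 10 members, each list's genes past the threshold or otherwise up to 2 with the smallest p, and the 3 genes closest to the leading ligand, receptor or co-receptor, and Lect1. Alternatives were a pseudocount of 0.1, no filter, a filter at 5 FPKM, the library number as a block, no intensity trend, quantile normalization, rescaling without the highest 5% of genes, and leaving out each library.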

Additional observations from a re-analysis of the deposited data

How the results depend on the processing

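In no alternative did a member pass the threshold (0 of 100 member fits, lowest adjusted p = 0.127, for Nrp2 with the replicate block). The count of all genes past it was 143, against 271 with the library number as a block, 83 without an intensity trend and 42 to 85 without 1 library. Vegfa, Vegfb, Kdr, Nrp1 and Nrp2 kept their sign in all their fits, Vegfb between 0.016 and 0.54 and Nrp2 between -1.30 and -0.65, and so did the ratios of Nrp1 over Nrp2, Flt1 over Kdr and Vegfb over Vegfa. In the fits without 1 library, Lect1 ran from -0.64 to 0.10 (0.06 without FP 14), Flt1 from -0.018 to 0.37 (-0.0010 without FP 11), Pgf from -0.41 to 0.084 (not tested without FP 14, where it fell under the filter), Lect1 over Vegfa from -0.23 to 0.89 and Pgf over Vegfa from -0.57 to 0.73. Pgf over Vegfa was -1.32 with a pseudocount of 0.1. The causes were not tested. Same-numbered libraries deviated together at r of 0.319, 0.185 and 0.0890 for 11, 14 and 16, the last being weak. By these deviations from group means, each library's closest match in the other group was its own number. Deviations within a group sum to 0, so these r values are not independent. By Pearson's r across genes, FP 14 was closer to RR 16 (r = 0.839) than to RR 14 (r = 0.793). No source states pairs, so the number was a block only in an alternative. There the SE fell from 0.33 to 0.20 for Vegfa and from 0.48 to 0.20 for Lect1, but rose from 0.41 to 0.45 for Flt1. Vegfa, Kdr and Nrp2 were lower, and Nrp1 higher, in FP than in the same-numbered RR library all 3 times. At about 12 to 49 fragments for Kdr, depth limits the receptor values.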
